A study of Mus musculus with 2 samples.

Results

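The 3 orphan nuclear receptors of the NR4A family, Nr4a1 (also called Nur77), Nr4a2 (Nurr1) and Nr4a3 (Nor1), were followed in mouse ovary with and without ulipristal acetate. Ulipristal, a drug of emergency contraception, binds the progesterone receptor and alters its activity. Every probe set whose annotation named exactly 1 gene, and that gene was an NR4A member, was taken. The 3 genes, of 18193 named in this way, had 10 of the 45101 probe sets on the array, of which 1 belonged to Nr4a1, 6 to Nr4a2 and 3 to Nr4a3. All mice were wild type, of CD-1 background and 24 to 28 days old, so they were immature. Each had received 5 IU of pregnant mare serum gonadotropin (PMSG), which grows follicles. After 48 h they were given 5 IU of human chorionic gonadotropin (hCG), which acts on the luteinizing hormone (LH) receptor and starts ovulation. The control group was given oil vehicle and the treated group ulipristal, in both cases 2 h after hCG. Ovaries were collected at 11 h, counted from an injection that the labels leave unnamed. Whole-ovary RNA was hybridised to 2 Affymetrix Mouse Genome arrays, 1 per treatment. The labels do not give the ulipristal dose or the number of mice behind each array. Neither treatment had a second array, so replicate error cannot be estimated, no test or p-value is given, and every difference describes these 2 arrays.

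NR4A receptors are transcription factors of the nuclear receptor family that act without a classical hormone, because their ligand pocket is filled by side chains. Their activity is set mainly by how much of them is made, and their genes are immediate early genes, switched on within minutes by cyclic AMP, calcium or growth factor signals, largely through the factor CREB and its binding site, the cyclic AMP response element (CRE). They bind a DNA element named NBRE as monomers, and Nr4a1 and Nr4a2 can also pair with retinoid X receptors. In the ovary the LH surge raises cyclic AMP and induces these genes in follicle cells, and NR4A factors are known to act on genes of steroid synthesis and breakdown.

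The RefSeq promoter windows of the genes (build GRCm38.p6, 250 bases before the transcription start to 50 after it) are shown because each holds several copies of the core of the CRE. Capitals mark the core, TGACG or its reverse complement CGTCA. The Nr4a1 window is chr15:101266596-101266895 on the plus strand, the Nr4a2 window chr2:57123954-57124253 on the minus strand and the Nr4a3 window chr4:48045055-48045354 on the plus strand. All are written from 5′ to 3′ along the gene.
Nr4a1: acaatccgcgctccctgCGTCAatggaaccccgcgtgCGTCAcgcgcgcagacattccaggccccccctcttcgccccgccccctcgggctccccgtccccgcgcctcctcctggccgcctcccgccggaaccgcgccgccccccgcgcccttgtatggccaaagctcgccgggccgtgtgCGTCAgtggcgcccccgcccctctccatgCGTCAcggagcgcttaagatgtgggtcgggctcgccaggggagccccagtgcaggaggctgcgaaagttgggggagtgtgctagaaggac
Nr4a2: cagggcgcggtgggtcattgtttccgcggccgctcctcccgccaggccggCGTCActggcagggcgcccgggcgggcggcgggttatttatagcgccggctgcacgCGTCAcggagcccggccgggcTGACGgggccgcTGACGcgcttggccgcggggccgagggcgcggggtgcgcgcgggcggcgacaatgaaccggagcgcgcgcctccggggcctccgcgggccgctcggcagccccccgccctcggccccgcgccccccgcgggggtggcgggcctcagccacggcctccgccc
Nr4a3: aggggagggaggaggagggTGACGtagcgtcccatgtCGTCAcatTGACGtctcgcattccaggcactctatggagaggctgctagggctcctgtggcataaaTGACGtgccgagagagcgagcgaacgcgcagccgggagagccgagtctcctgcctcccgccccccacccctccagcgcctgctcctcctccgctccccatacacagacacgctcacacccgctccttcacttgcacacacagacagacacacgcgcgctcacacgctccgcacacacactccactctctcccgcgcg

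Each of the 3 windows held 4 CRE cores, counted on both strands. Of 32544 distinct promoter windows of the same length, 20.9% held at least 1 core and 0.234% held 4 or more. That threshold was chosen after the NR4A windows had been read. In Nr4a1 the cores lay at -233, -213, -69 and -40, counted from the first transcribed base as 0 to the start of each match. In Nr4a2 they lay at -200, -144, -123 and -111, and in Nr4a3 at -231, -213, -205 and -147. A full palindromic CRE, TGACGTCA, which contains the core on both strands, was found in 1.80% of all windows and in no NR4A window. The NBRE, AAAGGTCA, occurred in 1.52% of windows, and TGTTCT, the half-element read by the progesterone and glucocorticoid receptors, in 18.9%, and neither set of letters was in an NR4A window. The GC box, GGGCGG, was matched 3 times in Nr4a1, 5 times in Nr4a2 (with overlaps) and 1 time in Nr4a3, and 35.9% of all windows held it. Of the sites searched for under their names alone, the CArG box (in 1.64% of windows) had no match and the MEF2 box (in 3.16%) had 1 match, in Nr4a2. The windows were rich in G and C, with 72.3% in Nr4a1, 81.7% in Nr4a2 and 64.7% in Nr4a3. Of all windows, 6.51%, 0.593% and 19.1% respectively had at least as much. A match describes letters and not binding, which was not measured here.

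**Figure D1:**
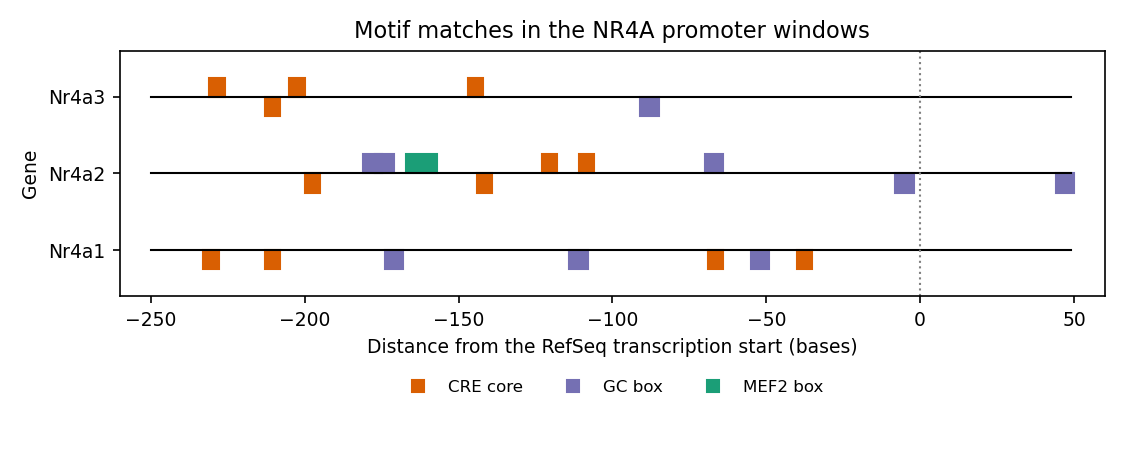
Position of motif matches in the promoter windows of the NR4A genes, as distance in bases from the RefSeq transcription start (dotted line). Boxes above a line lie on the gene's strand and boxes below it on the opposite strand, and each gene shows 4 CRE cores, all upstream of the start.

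All 3 receptor genes had lower signal on the ulipristal array, and 2 of them, Nr4a2 and Nr4a3, were at least 2-fold lower. Signals are MAS5 values in arbitrary units, and ratios give ulipristal over vehicle. Before log2 was taken, values under a floor of 7.17 were raised to it. Probe sets in the upper part of the array by mean log2 signal (above its median, a signal of 30.8) are called measured. The brightest probe set by that mean stands for its gene. As deposited, 9 of the 10 NR4A probe sets had a lower signal with ulipristal, as did 45.8% of all non-control probe sets. Of these 9, 1421079_at was under the floor on both arrays. Of the 10, 6 were measured, and all 6 lay below 0 on the log2 ratio scale, where 44.0% of all measured probe sets did. Of those 6, 4 were at least 2-fold lower, against 2.22% of all measured probe sets. The same limit in genes was passed downward by 1.56% and upward by 3.34% of the 11364 measured. The share called lower ran from 1.23% to 1.80% under the 4 other scalings. Of all genes past 2-fold, 68.2% were higher, a share that ran from 56.2% (lowess centring) to 80.2% (centring on housekeeping genes) under those scalings.

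**Figure D2:**
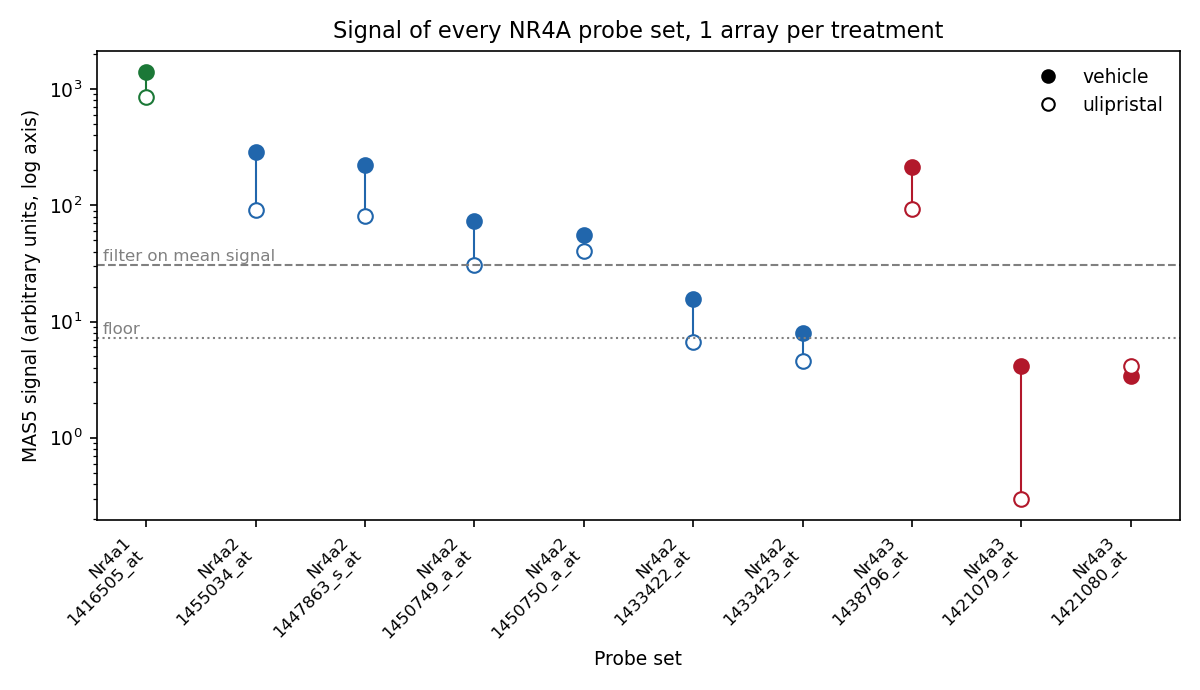
MAS5 signal (log axis, arbitrary units) of all 10 NR4A probe sets on the vehicle array (filled) and the ulipristal array (open), with the floor of 7.17 and the filter value of 30.8. The filled point is above the open one for 9 of 10 probe sets, the exception being 1421080_at. Both it and 1421079_at lie below the floor on both arrays, where values have no order.

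Nr4a2, which is best known for its part in dopamine neurons and is also an LH-induced gene of the follicle, showed the lowest ratio of the family. Its brightest probe set, 1455034_at, read 285.0 with vehicle and 90.8 with ulipristal, which is 3.14-fold lower and a log2 ratio of -1.65. That ratio stood at rank 48 from the lowest of 11364 measured genes, so that 0.422% of genes were at or below it. The other measured probe sets of the gene went the same way by different amounts. Probe set 1447863_s_at read 221.9 and 80.2 (log2 ratio -1.47), and 1450749_a_at read 73.7 and 30.9 (log2 ratio -1.25). The ratio was smaller on 1450750_a_at, which read 55.3 with vehicle and 40.1 with ulipristal (1.38-fold lower, log2 ratio -0.46), although it was designed on the same source sequence as 1450749_a_at. The suffix s marks probes that can bind several transcripts, and the suffix a marks probes shared by transcripts of 1 gene. The last pair, 1433422_at and 1433423_at, also from 1 source sequence, was too dim to be measured. They read 15.7 and 8.02 with vehicle, and 6.60 and 4.59 with ulipristal, the last 2 values being under the floor. With these signals 1433422_at was at least 2.19-fold lower and 1433423_at at least 1.12-fold lower.

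Nr4a3, the third member of the family, was lower on the only probe set that was measured. Probe set 1438796_at read 215.1 with vehicle and 93.1 with ulipristal, which is 2.31-fold lower and a log2 ratio of -1.21. It stood at rank 122 from the lowest of the measured genes, with 1.07% at or below it. The other 2 Nr4a3 probe sets, 1421079_at and 1421080_at, share a source sequence and were under the floor on both arrays. They read 4.12 and 3.37 with vehicle and 0.299 and 4.15 with ulipristal, values that have no order, so no fold is given for them. The Nr4a3 result therefore rests on 1 probe set.

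Nr4a1, the member most studied in steroid-making cells, had the ratio closest to 1 of the family and did not reach 2-fold. Its only probe set, 1416505_at, read 1399 with vehicle and 848 with ulipristal, which is 1.65-fold lower and a log2 ratio of -0.72. It stood at rank 333 from the lowest of the measured genes, with 2.93% at or below it. At a threshold of 1.5-fold it would be called lower, together with 4.58% of all measured genes.

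**Figure D3:**
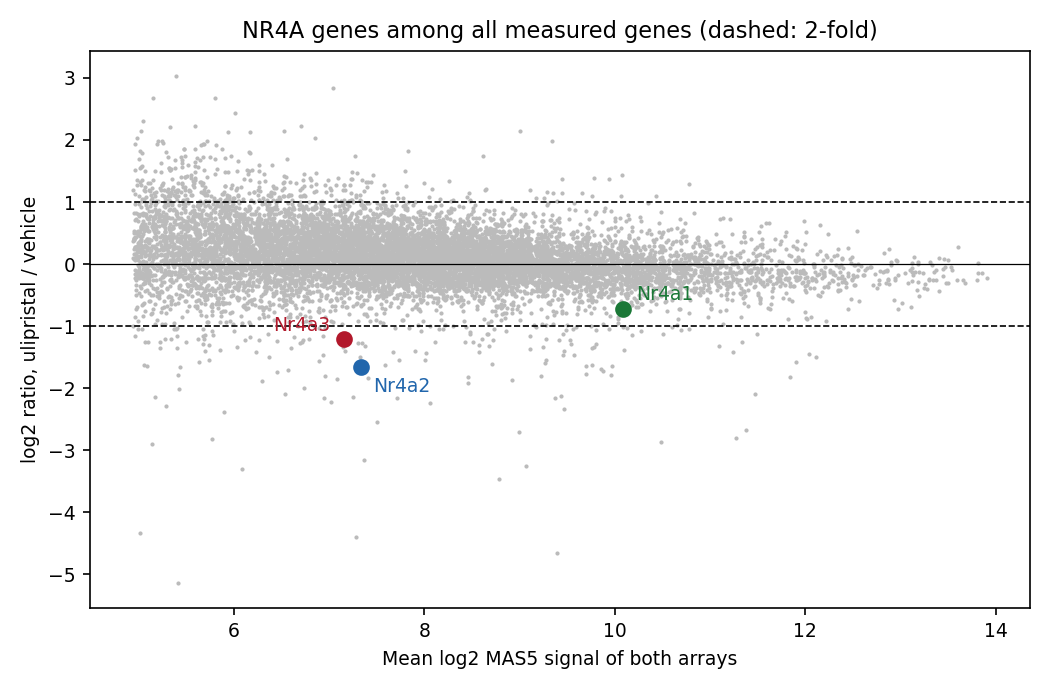
Log2 ratio (ulipristal over vehicle) against mean log2 signal for the 11364 measured genes (grey), with the NR4A genes in colour. Nr4a2 and Nr4a3 lie below the lower dashed line, which marks 2-fold, and Nr4a1 lies between the lines, below 0.

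The differences between the members lay within the span of the probe sets of Nr4a2, a span whose width depends on 1 dim probe set. The log2 ratio of Nr4a1 was 0.93 above that of Nr4a2 and 0.49 above that of Nr4a3, and Nr4a3 was 0.44 above Nr4a2. Within Nr4a2 the log2 ratios of its 4 measured probe sets spanned 1.19, with a median of -1.36. The upper end was the dim probe set 1450750_a_at (-0.46), and the other 3 ran from -1.65 to -1.25. Among 474 genes with 4 measured probe sets, the median span was 0.65, and 11.6% had a span at least as wide as that of Nr4a2. The order of the members by ratio is thus not settled by these arrays. With a pseudocount of 50 added to every signal in place of the floor, Nr4a2 remained past 2-fold (log2 ratio -1.25) but Nr4a3 did not (-0.89).

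Among the nuclear receptors on the array the NR4A genes stood near the low end. Of 28 measured receptor genes, they took positions 2, 3 and 4 from the lowest ratio. The other 25 had a median log2 ratio of 0.37, against 0.09 for all measured genes. Of these 25, 21 lay above 0 and 4 below, and 40.0% of all measured genes lay below 0. At least 2-fold higher were 4 of them and lower 1, against 3.34% and 1.56% of all measured genes. Only Nr1h4, the bile acid receptor, had a lower ratio than Nr4a2 (signals of 232.6 and 66.9, log2 ratio -1.80). The receptor next above Nr4a1 was Pparg, a receptor for fatty acid derivatives, with a log2 ratio of -0.63. At the other end were Pgr, the progesterone receptor itself (49.2 and 350.6, log2 ratio 2.83 on 1 of its 3 probe sets, the others being at or near the floor), Esr2, estrogen receptor beta (43.1 and 98.1), Ppara, a fatty acid receptor (35.2 and 80.0), and Nr0b1, a receptor-like repressor that can block NR4A activity (31.2 and 64.4). The latter 3 were dim, and none of them reached 2-fold with a pseudocount of 50 (log2 ratios of 0.67, 0.61 and 0.49). Nr0b1 also fell short of it under 3 of the 4 other scalings (0.98 after median centring, 0.92 after quantile normalization and after lowess centring), and Ppara by the median over its probe sets (0.57). The NR4A-related receptors of steroidogenesis, Nr5a1 and Nr5a2, had log2 ratios of 0.45 and 0.06.

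**Figure D4:**
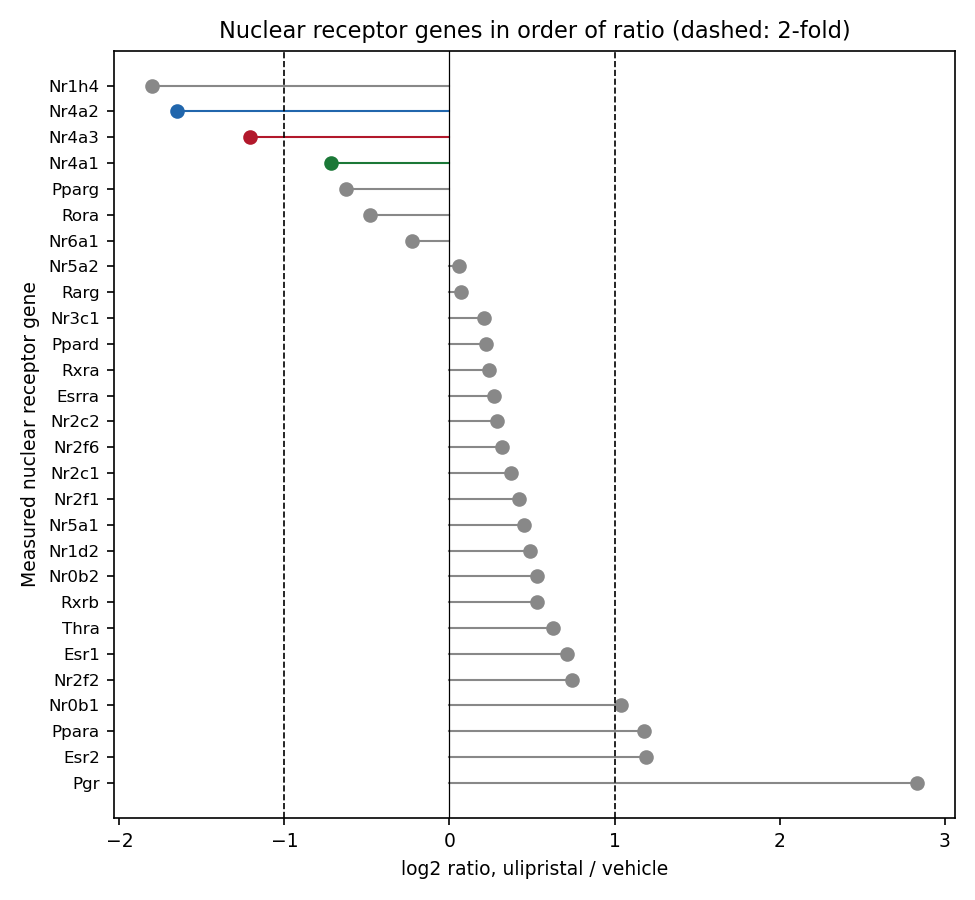
Log2 ratio (ulipristal over vehicle) of the 28 measured nuclear receptor genes in order, with the NR4A genes in colour and dashed lines at 2-fold. The NR4A genes hold positions 2 to 4, from -1.65 to -0.72, and Pgr is highest at 2.83.

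Genes of the pathways that switch NR4A genes on had call counts near those of all genes. Of 24 measured genes for cyclic AMP, calcium and ERK signalling, 0 were at least 2-fold lower (1.56% of all measured genes were) and 1 was higher (3.34% of all), with a median log2 ratio of 0.06 against 0.09. The higher one was Fshr, the receptor of follicle-stimulating hormone (51.1 and 115.8), and it did not reach 2-fold with a pseudocount of 50. Creb1, which encodes CREB, read 627.5 and 549.1, and the catalytic subunit gene of protein kinase A, Prkaca, read 1369 and 1105. Crem, a gene of the CREB family, was 1.53-fold lower (308.6 and 202.0, log2 ratio -0.61), and a dimmer probe set for it gave -1.09. The LH receptor gene, Lhcgr, had no probe set naming 1 gene and was not analysed here.

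Other rapid response genes, listed here as driven by CREB, were lower on the ulipristal array, as the NR4A genes were. Activity of CREB was not measured. All 21 measured members lay below 0, where 40.0% of all measured genes did, and 10 of 21 were at least 2-fold lower, against 1.56% of all. Their median log2 ratio was -0.99. Of the genes at least 2-fold lower, Atf3 read 70.1 with vehicle and 29.3 with ulipristal, the latter under the filter value of 30.8. It therefore passed the filter only through the vehicle array. Ptgs2, the inducible cyclooxygenase, read 1467 and 132.1 (log2 ratio -3.47). Fos, a subunit of the AP-1 factor, read 1473 and 471.0 (-1.64), Nfil3, a transcriptional repressor, 1059 and 364.7 (-1.54), and Egr1, a zinc finger factor, 7379 and 2631 (-1.49). Nr4a2 would stand second from the lowest in this list, with 1 gene below it, Nr4a3 in the middle, with 9 below and 12 above, and Nr4a1 in the upper part, with 16 below and 5 above. Crem is also counted here. This list was chosen with earlier results of these arrays known, so its direction is a description. With a pseudocount of 50, 5 of its members were at least 2-fold lower, against 0.862% of all measured genes at that setting.

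**Figure D5:**
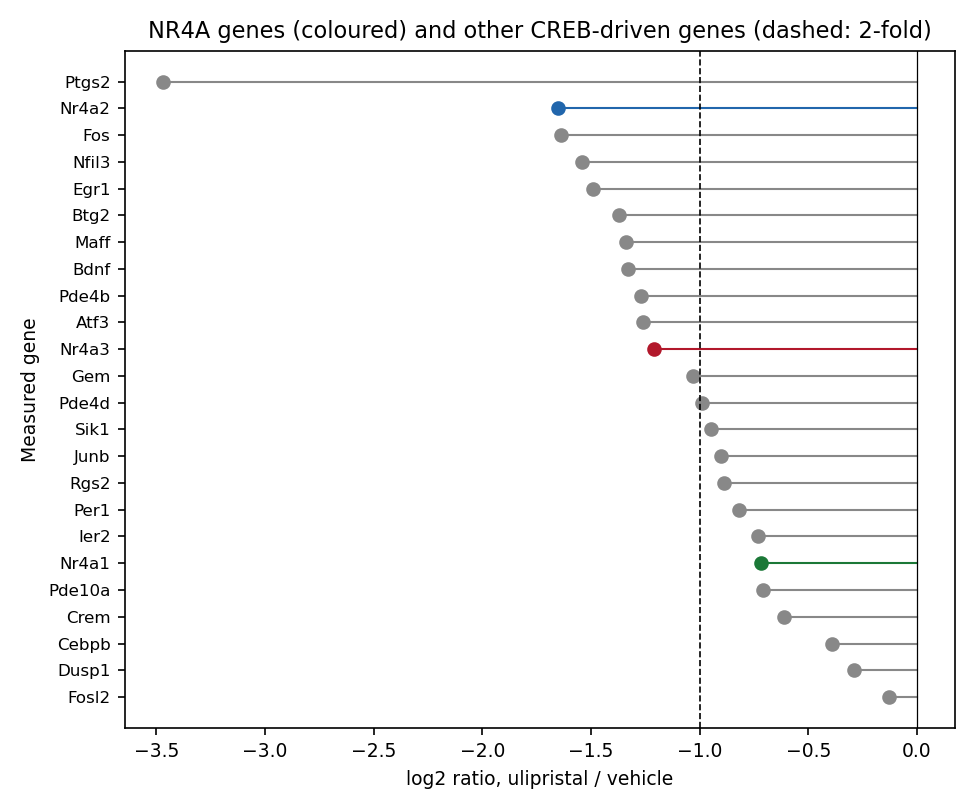
Log2 ratio (ulipristal over vehicle) of 21 measured rapid response genes listed as CREB-driven (grey) and the NR4A genes (coloured), in order, with a dashed line at 2-fold. All 24 lie below 0, and Nr4a2, Nr4a3 and Nr4a1 sit at -1.65, -1.21 and -0.72.

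Partners and coregulators of NR4A factors also had counts near those of all genes. None of the 19 measured genes of this kind was at least 2-fold lower (0 of 19, against 1.56% of all measured genes) and 1 was higher (against 3.34%), with 5 below 0 (against 40.0%) and a median log2 ratio of 0.10. The higher one was Nr0b1, under the limits given above. The retinoid X receptors Rxra (97.2 and 115.1) and Rxrb (157.0 and 227.4), which can pair with Nr4a1 and Nr4a2, were both slightly higher, and Rxrg was below the floor on both arrays. Gadd45b, a stress response gene, was the lowest of the list, at 282.0 and 210.4 (log2 ratio -0.42).

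Genes reported as NR4A targets went different ways. Of 8 measured targets in steroid-making cells, 2 were at least 2-fold lower and 0 higher, against 1.56% and 3.34% of all measured genes. Akr1c18, the enzyme that inactivates progesterone and a reported target of Nr4a1, read 1077 and 355.0 (3.03-fold lower, log2 ratio -1.60). Cyp11b1, an enzyme of corticosteroid synthesis, read 945.7 and 409.3 (2.31-fold lower), but it has a near-identical copy, Cyp11b2, and whether its probes separate them was not tested. The remaining 6 lay between, among them Star, which delivers cholesterol to mitochondria (5733 and 5016), Cyp17a1, which makes androgens (851.4 and 1138), Cyp11a1, which makes pregnenolone (log2 ratio 0.10), and Hsd3b1, which makes progesterone (0.02). The median of the list was -0.11 and changed sign with the scaling (0.03 after quantile normalization). Outside steroid-making cells, 1 of 9 measured targets was at least 2-fold lower and 0 were higher, beside the same shares over all genes. That gene was Runx1, a transcription factor that LH induces in granulosa cells (1154 and 438.1), whose 6 measured probe sets ranged from -1.73 to -0.11. By the median over these probe sets it was just short of 2-fold, at -0.98. The other 10 genes of that list with a probe set, among them Fasl, a ligand that triggers cell death, were too dim to be measured.

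The genes nearest to each member in both log2 signals were found by Euclidean distance over the 2 arrays, among 11363 other measured genes. They only mark a similar pair of signals. For Nr4a1 they were Sin3b, a corepressor subunit, Slc7a1, a cationic amino acid transporter, and Frmd5, at distances of 0.034 to 0.038. For Nr4a2 they were Bves, a membrane protein that binds cyclic AMP, Tnfaip6, a hyaluronan-binding protein of the cumulus matrix, and Ldhd, a lactate dehydrogenase, at 0.11 to 0.24. Nr4a3 lay nearest to Maff, a small leucine zipper factor, Mreg and Prune2, at 0.094 to 0.18.

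Tissue content and technical controls also differed between the arrays. The ovary label was borne out by oocyte markers (9 of 10 measured, median log2 ratio 0.14) and granulosa cell markers (12 of 12 measured, median 0.35, with 4 at least 2-fold higher). Over all genes measured, 3.34% passed 2-fold upward and 40.0% lay below 0. All 8 measured oviduct markers were above 0 and 6 were at least 2-fold higher. Of these 6, Foxj1 (19.1 with vehicle and 75.1 with ulipristal) and Ccdc39 (27.4 and 72.9) were under the filter value of 30.8 with vehicle. They passed the filter only through the ulipristal array, as did Cidec, an adipocyte marker (28.7 and 67.9). The summed signal over the list of 9 oviduct markers was 3974 with vehicle and 6518 with ulipristal. Neutrophil markers went the other way in sum, from 526.2 to 338.3 over 8 genes, with S100a8 and S100a9 at least 2-fold lower, Ltf at least 2-fold higher and the others too dim. Summed signals with vehicle and ulipristal were 1503 and 2276 for surface epithelium markers (9 of 10 above 0), and 1954 and 2788 for adipocyte markers (4 of 4 measured above 0). They were 1922 and 2246 for macrophage and 2496 and 3020 for endothelial markers. In whole ovaries, fewer cells of a type cannot be told apart from less RNA per cell. Poly-A spikes, added control transcripts, were 1.48-fold brighter with vehicle (median of 12), and probe sets for 18S ribosomal RNA were 2.41-fold brighter. The 3 Gapdh control probe sets went the other way, with a median log2 ratio of 0.46, and the 3 for Actb had 0.05. The median log2 ratio of 12 housekeeping genes was -0.12. The ratio of 3′ to 5′ signal, a sign of RNA integrity, was 1.20 with vehicle and 0.866 with ulipristal for Gapdh, and 2.40 and 1.87 for Actb. The part of these differences in the NR4A values was not tested. When ratios were centred on the housekeeping genes, Nr4a2 and Nr4a3 were still past 2-fold (-1.53 and -1.08) and Nr4a1 was at -0.60. Centring on the spikes was not done. Their median log2 ratios were -0.57 for poly-A spikes (11 of 12 below 0) and -0.31 for hybridisation spikes (9 of 9 below 0).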

How the data were processed

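The authors deposited linear intensities, 1 value per probe set, for 1 vehicle and 1 ulipristal array. MAS5 and Affymetrix Expression Console version 1 are named in the submitters' processing notes, without the step each did, and no genome build is given in the sources used here. Trimmed by 2% at each end, the mean was 150.001 on both arrays, which bears out a global scaling that would hide any general shift. Groups came from the treatment labels. The platform annotation named 1 gene for 34945 of 45101 probe sets, several for 932 and none for 9160, and 64 were controls.

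Signals were floored at the 25th percentile of both arrays, log2 was taken and vehicle was subtracted from ulipristal. Probe sets at or above the median mean log2 signal (22519) were called measured, which left 11364 of 18193 genes. A call needed 2-fold. No test was possible with 1 array per treatment, and for arrays their number limits the precision. Detection calls were not used here. The members and lists were chosen with earlier results of these data known. Named were all NR4A probe sets, Pgr and the 3 genes nearest to each member. From each list up to 4 measured members with the largest absolute log2 ratios could be named, and not all of them were. Other genes were named for their known role, for a limit on their signal or, in the receptor order, their place, after their values were seen. Promoter windows came from RefSeq (GRCm38.p6), of which all 3 NR4A genes matched, with duplicates removed for the shares. The planned comparison of protein sequences was not made. Steps were tested on simulated arrays. Alternatives were 4 other scalings, a floor at the 50th percentile or none, a pseudocount of 50, a filter at the 75th percentile or none, other rules for a gene's probe set, and 1.5-fold and 3-fold. Software was Python 3.11.15 with pandas 2.3.3, numpy 2.4.6, matplotlib 3.10.9 and, for lowess (fraction 0.3), statsmodels 0.14.6.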

Additional observations from a re-analysis of the deposited data

How the results depend on the processing

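Every alternative that gave a value kept Nr4a1, Nr4a2 and Nr4a3 below 0: from -0.78 to -0.60 over 13 alternatives for Nr4a1, from -1.77 to -1.25 over 13 for Nr4a2 and from -1.33 to -0.89 over 12 for Nr4a3. Many of these could not move a ratio, since a fold threshold, for example, leaves it as it is. For Nr4a1 and Nr4a3 only the 4 other scalings and the pseudocount changed the value, and the rest left -0.72 and -1.21. For Nr4a2 the median over its probe sets (-1.36) also did. Nr4a2 stayed past the threshold in each alternative. Nr4a3 fell short with a pseudocount of 50 (-0.89) and at a 3-fold threshold (-1.21), and was too dim for the filter at the 75th percentile. Nr4a1 passed only the 1.5-fold threshold (-0.72). Of the measured NR4A probe sets, 2 were called lower with a pseudocount of 50, 1 with the filter at the 75th percentile (which left 2 of the 10 probe sets, those of Nr4a1 and the brightest of Nr4a2) and 1 at 3-fold. Among all genes the counts called lower and higher were 98 and 54 with a pseudocount of 50 (0.862% of measured genes lower). They were 460 and 1025 without a filter (2.53% lower) and 101 and 58 with the filter at the 75th percentile (1.43% lower). At 1.5-fold they were 520 and 1402 (4.58% lower), and at 3-fold 57 and 60 (0.502% lower). These shares are over genes and not over probe sets. The cause of these moves was not tested, other than that a filter or threshold sets how many genes can be called. Of 826 comparisons of other named genes with their main value, 766 kept their call, 43 lost and 17 gained one, and 65 of 464 counts over lists moved. No paired analysis was possible because each treatment had 1 array, and for the same reason no array could be left out. Signals under the floor of 7.17 limit 4 of the 10 NR4A probe sets: 2 of Nr4a3 were under it on both arrays and have no order, and 2 of Nr4a2 were under it with ulipristal, so that their folds are lower bounds.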

Other observations

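Few genes had as many CRE cores as the NR4A promoters. Of 9179 measured genes with a promoter window, taking the window with most cores for each gene, 52 held 4 or more cores, and 2 of them (3.85%) were at least 2-fold lower, against 138 of the 9179. Those 2 genes were Nr4a2 and Nr4a3. Without the NR4A genes, 0 of 49 were at least 2-fold lower, 1 was at least 2-fold higher (Mturn) and 21 lay below 0, with a median log2 ratio of 0.07, against 0.09 for the 9179. These counts are close to the share over all genes and too small to be read further. The share at least 2-fold lower was 1.39% of 5885 genes with no core, 1.59% of 2322 with 1 core and 1.85% of 920 with 2 to 3 cores. The share at least 2-fold higher was 3.81%, 2.45% and 1.74% in the same order, and the median log2 ratio 0.12, 0.07 and 0.04. The windows with 4 or more cores were also richer in G and C (median 64.7% against 61.3% over all 9179). No test was made of these shares, and the count of 4 was chosen after the NR4A windows had been read.

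Of the 16 measured genes listed as CREB-driven that had a window, 13 held at least 1 core (81.2%, against 35.9% of the 9179). Of the 16, 6 held at least 2, and none held 4. The list was chosen for genes taken to be driven by CREB, which binds the CRE. A high share with a core is therefore not independent of that choice. The median log2 ratio was -0.71 for the 3 genes with no core, -1.27 for the 7 with 1, -1.35 for the 4 with 2 and -0.34 for the 2 with 3, which were Dusp1, a phosphatase of MAP kinases, and Cebpb, a factor of luteinization. No test was made of this order.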
